A study of Mus musculus with 5 samples.

Results

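The endoplasmic reticulum (ER) folding machinery and the unfolded protein response were followed through the cells of mouse islets by 32 genes of the 32285 counted, chosen by name as ER chaperones, disulfide enzymes, degradation factors, stress sensors and parts of the translocon. All 32 were found in the matrices. The islets came from 5 NOD.SCID mice of the strain NOD.Cg-Prkdcscid/J, whose scid mutation of Prkdc leaves them without mature T and B cells, so that both diets were compared in a host without these cells. Of the mice, 3 ate chow (8, 10 and 10 weeks old) and 2 ate 20% HC, a hydrolyzed casein diet (7 and 9 weeks old). Islets were picked by hand and dispersed with trypsin, and each mouse gave 1 droplet library with 3′ chemistry, in which a unique molecular identifier (UMI) marks 1 captured transcript.

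Proteins that enter the secretory pathway fold inside the ER, where chaperones hold them, disulfide isomerases and oxidases form their bonds, and misfolded chains are sent back to the cytosol for degradation. When unfolded protein accumulates, the sensors IRE1 (gene Ern1), PERK (Eif2ak3) and ATF6 (Atf6) start the unfolded protein response. IRE1 splices the messenger of the transcription factor XBP1, ATF6 is cut into a transcription factor, and PERK slows translation and raises ATF4 and CHOP. Beta cells make proinsulin, a protein with disulfide bonds, in very large amounts, and islets are known for a strong dependence on these pathways. Counts per gene from the 3′ end do not separate spliced from unspliced Xbp1, so the activity of IRE1 was not measured.

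The libraries held 28722244 to 39624978 UMIs in 4452 to 6087 barcodes, and 22758 of 26474 barcodes passed the cell filters. Clusters were named from marker genes as beta-like, alpha-like, delta-like, macrophage-like and endothelial-like, and are called beta cells, alpha cells and so on here. Of the markers listed for each type, 11 of 14 beta, 10 of 11 alpha, 9 of 10 delta, 19 of 19 macrophage and 16 of 16 endothelial markers were highest in the type they name. The same markers had named the clusters, so these counts are no separate check of the types. Beta cells numbered 1723 to 2628 a mouse, alpha cells 706 to 1192, delta cells 342 to 453, macrophages 47 to 91 and endothelial cells 78 to 270. Clusters left without a name held 11.7% to 15.7% of the cells of a mouse. HC mouse 2 carries a chow title and an HC diet label and was kept as HC, since the study's design counts 2 HC mice. Library names begin with FUN (chow mouse 1 and HC mouse 1) or SKY (the other 3 mice), and the labels do not say what this marks. Beta cells of the mice lay in different clusters, counted before cells rich in another type's hormone were removed. Cluster 3 held 976 of the 1728 beta cells of chow mouse 1 and 610 of 2053 of HC mouse 1, but 247 of 2648 and 154 of 2526 in chow mice 2 and 3 and 333 of 1763 in HC mouse 2, and its part in the results was not tested. The FUN mice had 61.4% and 62.2% of their beta cell UMIs from Ins1 and Ins2 against 68.3% to 69.3% in the SKY mice, and Gcg took 40.7% to 44.9% of alpha cell UMIs. Levels are therefore given as UMIs per 1000000 UMIs that did not come from the 7 hormone genes Ins1, Ins2, Iapp, Gcg, Sst, Ppy and Pyy, called hormone-free UPM. Fold changes come from edgeR, whose TMM factors scale each sum separately.

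Stress elements were looked for first, because they are the sequences through which the cleaved ATF6 and XBP1 proteins are known to act. RefSeq promoters (GRCm38.p6, 250 bases before to 50 after the start site) were present for 28 of the 32 genes. The ER stress element ERSE, searched as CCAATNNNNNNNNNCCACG on both strands, stood in 10 of these 28 genes (35.7%) and in 37 of all 27025 genes (0.137%). The second form, ERSE-II, searched as ATTGGNCCACG, stood in 2 of 28 genes, Dnajb11 and Herpud1 (7.14%), against 0.0444% of all genes. The element TGACGTGG, called UPRE, was found by these exact letters in 0 of 28 and in 0.714% of all genes. Variants of it were not searched, and the Hspa5 promoter holds a variant that ends in A instead of G. The 32 genes were chosen by name for their part in ER folding and this response. Their ERSE and ERSE-II shares are therefore descriptions and no test against all genes. Manf, Derl1, Atf6 and Hyou1 had no promoter to search. Genes with ERSE are shown here because they span several roles, from Hspa5, the chaperone BiP, to Ero1lb, the oxidase that is enriched in beta cells. The genes lie on the chromosomes given, for example Hspa5 at chr2:34771970-34777547 (plus strand, protein coding, GRCm38). This span is from the GENCODE annotation and begins upstream of the RefSeq start site, so the Hspa5 window lies inside it. Each window holds the match with 20 bases on either side, written along the gene's own strand, with the match in capitals; a match that begins with CGTGG reads ERSE on the opposite strand.
Hspa5, chr2:34772005-34772063, plus strand: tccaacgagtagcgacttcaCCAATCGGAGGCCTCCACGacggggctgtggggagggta
Hsp90b1, chr10:86705618-86705676, minus strand: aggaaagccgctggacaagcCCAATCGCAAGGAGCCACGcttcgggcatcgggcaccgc
Hsp90b1, chr10:86705513-86705571, minus strand: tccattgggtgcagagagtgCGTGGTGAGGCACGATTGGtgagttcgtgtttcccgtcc
Calr, chr8:84847055-84847113, minus strand: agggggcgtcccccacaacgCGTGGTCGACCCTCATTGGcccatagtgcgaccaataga
Canx, chr11:50325780-50325838, minus strand: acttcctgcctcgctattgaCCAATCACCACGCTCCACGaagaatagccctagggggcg
Pdia6, chr12:17266471-17266529, plus strand: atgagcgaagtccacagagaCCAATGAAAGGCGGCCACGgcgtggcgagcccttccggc
Dnajc3, chr14:118937807-118937865, plus strand: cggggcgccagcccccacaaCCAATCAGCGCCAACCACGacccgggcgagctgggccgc
Creld2, chr15:88819500-88819558, plus strand: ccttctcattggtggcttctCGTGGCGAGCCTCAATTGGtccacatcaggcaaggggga
Syvn1, chr19:6046512-6046570, plus strand: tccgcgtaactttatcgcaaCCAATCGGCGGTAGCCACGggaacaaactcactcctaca
Derl3, chr10:75893222-75893280, plus strand: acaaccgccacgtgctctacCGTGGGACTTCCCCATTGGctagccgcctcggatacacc
Ero1lb, chr13:12565662-12565720, plus strand: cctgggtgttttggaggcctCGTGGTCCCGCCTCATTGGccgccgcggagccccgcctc
Herpud1, chr8:94386357-94386407, plus strand: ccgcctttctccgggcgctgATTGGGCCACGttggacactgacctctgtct

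The 11 ERSE matches lay between 212 and 26 bases upstream of the RefSeq start site, 6 on the gene's strand and 5 on the other. By exact match to the searched letters, Hsp90b1 alone among the 10 genes carried a pair, 1 in each direction. Sites that differ from the searched letters were not counted, and the Hspa5 promoter holds a near match with 1 inserted base. The Herpud1 window holds ERSE-II, and Dnajb11 carried ATTGGCCCACG 7 to 17 bases after its start site. A match describes letters only and does not show that a factor binds there.

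**Figure D1:**
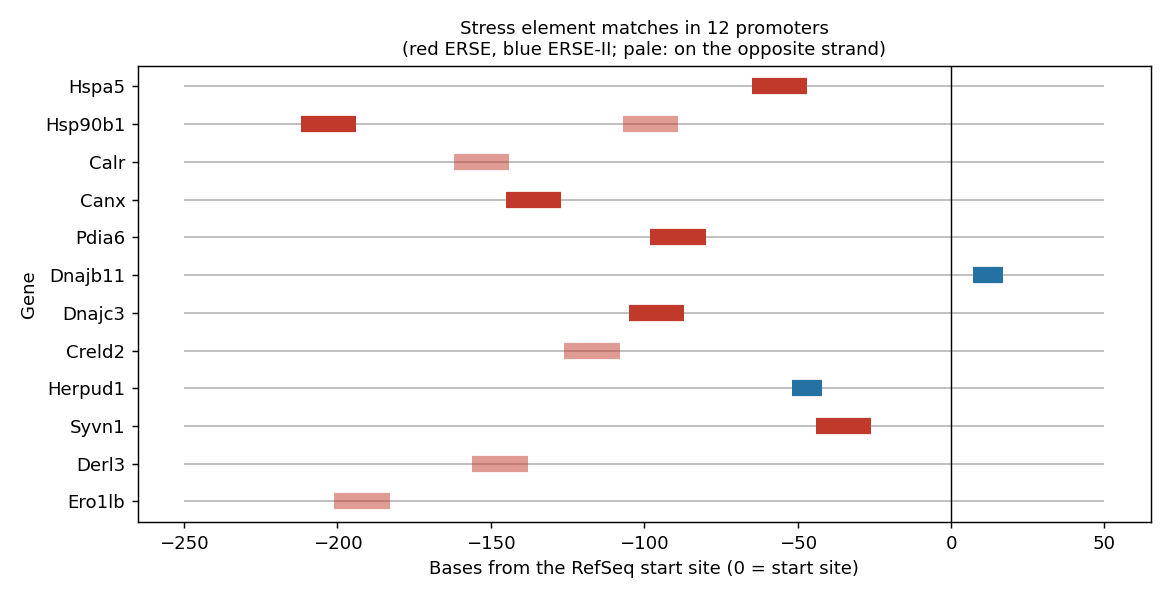
Position of each match in the 12 promoters, in bases from the RefSeq start site; red bars are ERSE, blue bars ERSE-II, and pale bars lie on the opposite strand. The 11 red bars all lie upstream, between 212 and 26 bases before the start site, and the blue bar of Dnajb11 lies after it.

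Relative to their other messengers, beta cells held the highest mean level of 27 of the 32 genes and delta cells that of the other 5 (Pdia3, Pdia4, Herpud1, Ern1 and Eif2ak3). In 20 of the 27 genes beta cells led every other type in all 5 mice. How many of all genes beta cells led was not counted, so this ranking has no background. Against alpha cells, 28 of 31 tested genes were higher in beta cells and 1 was lower, with a median log2 of 0.96, in a fit that called 29.3% of all genes higher and 28.9% lower (all-gene median 7.0e-04). Against delta cells, 25 were higher and 1 lower, with a median of 0.69, beside 26% and 23.9% of all genes (all-gene median 0.028). Against macrophages, 21 were higher and 0 lower (median 0.82; all genes 32.3% and 23.3%, median 0.34), and against endothelial cells 29 were higher and 0 lower (median 1.36; all genes 36.1% and 30.4%, median 0.15). On hormone-free library sizes the medians against macrophages were 1.31 for the 32 genes and 0.81 for all genes. Alpha cells lay below delta cells, with 14 genes lower and 2 higher (median -0.24; all genes 18.9% higher and 18.6% lower, median 0.021). These are edgeR quasi-likelihood tests on sums per mouse and type, with the mouse as a block and Benjamini-Hochberg adjustment over 10417 genes.

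Hormone messengers decide what the scaling means between these types. On UMIs per 1000000 of all UMIs, insulin included, the beta mean was above the alpha mean for 21 of the 32 genes, above the delta mean for 7, above the macrophage mean for 14 and above the endothelial mean for 13, so for many genes the direction flips on that scale, Hspa5 among them. The comparisons were also fitted on hormone-free library sizes. The all-gene median then moved by 0.14 for beta against alpha, -0.17 for alpha against delta and 0.48 for beta against macrophage cells. Counts of the 32 were 28 higher and 1 lower for beta against alpha, 24 and 1 for beta against delta and 29 and 0 for beta against endothelial cells. Over all genes the shares on that scale were 38.7% higher and 21.3% lower for beta against alpha. They were 23.7% and 25.7% for beta against delta, and 37.9% and 29.2% for beta against endothelial cells. For beta against macrophages 28 were higher, where 48.0% of all genes were then called higher. For alpha against delta 23 were then lower, beside 29.3% of all genes.

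**Figure D2:**
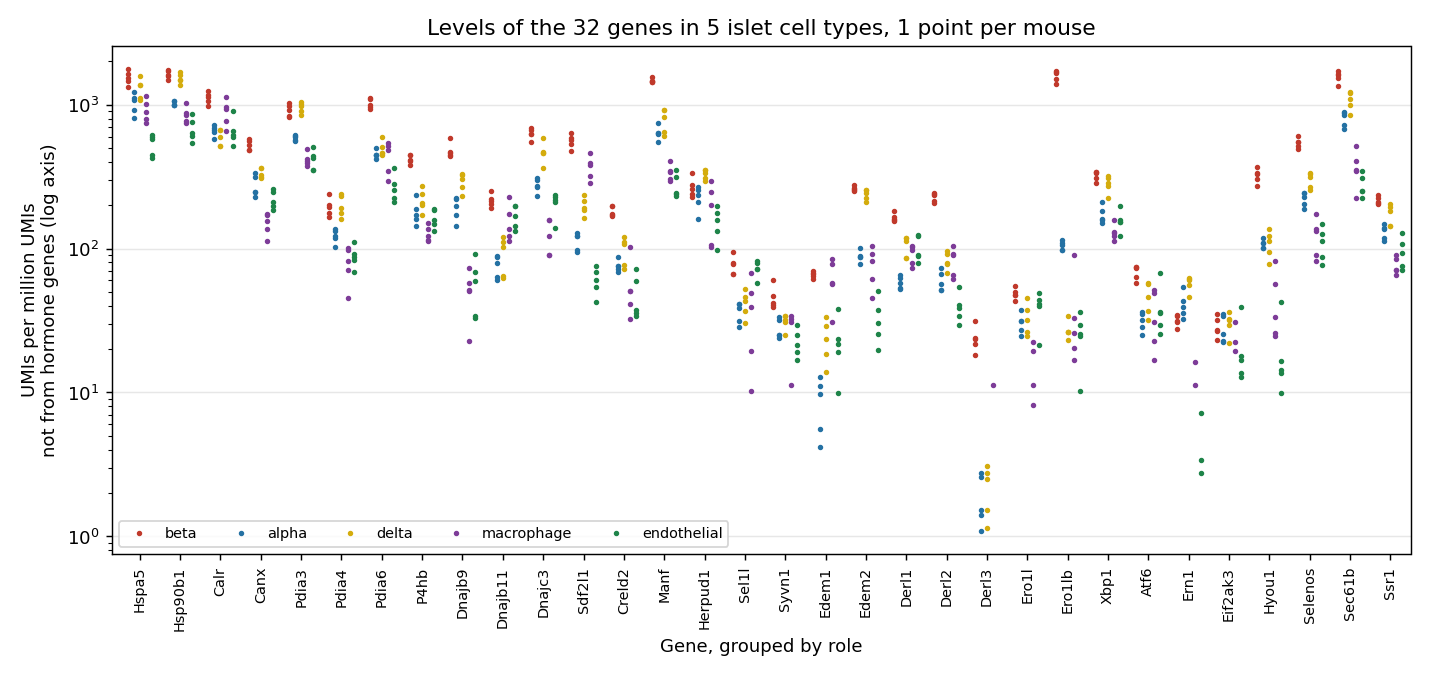
Level of each of the 32 genes in the 5 cell types, in hormone-free UPM on a log axis, with 1 point per mouse; values of 0 are not drawn. Beta cell points (red) stand above the other types for most genes on this hormone-free scale, and the gap is widest for Ero1lb; per 1000000 of all UMIs the beta mean exceeds the delta mean for 7 genes only.

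Among the chaperones, Hspa5 (the HSP70 chaperone BiP, which also holds the sensors inactive) stood at 1544 ± 167 in beta cells (SD, n = 5 mice of both diets), 1298 ± 205 in delta, 1019.8 ± 164 in alpha, 918 ± 160.0 in macrophage and 531 ± 88.7 in endothelial cells. It was higher in beta than in alpha cells in 5 of 5 mice (log2 0.46, SE 0.063, adjusted p = 1.16e-11) and than in delta cells in 4 of 5 (log2 0.30, SE 0.065, adjusted p = 2.14e-05). Alpha cells were lower than delta cells (log2 -0.16, SE 0.066, adjusted p = 0.0402), a call that ended without chow mouse 1, HC mouse 1 or HC mouse 2, in DESeq2, with no filter on low counts and without the mouse block (adjusted p = 0.0558 to 0.312). Beta cells also exceeded macrophages (log2 0.26, SE 0.085, adjusted p = 0.00543), a call lost without chow mouse 2 (adjusted p = 0.102), without chow mouse 3 (0.0515) and without the block (0.0733). The SDs of beta and delta cells overlap for Hspa5, as do those of alpha cells and macrophages.

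Hsp90b1, the ER member GRP94 of the HSP90 family, was at 1621 ± 104 in beta and 1527 ± 119 in delta cells, a difference that missed the threshold (log2 0.13, SE 0.063, adjusted p = 0.0874) but passed it without chow mouse 1 (adjusted p = 0.0301) and with either other clustering (0.0382 and 0.0486). In alpha cells it was at 1016 ± 34.2, lower than in beta cells (log2 0.53, SE 0.062, adjusted p = 6.16e-15). Calr and Canx, the lectin chaperones calreticulin and calnexin that bind glycoproteins, were both higher in beta than in alpha cells, Calr by a log2 of 0.61 and Canx by 0.79. Calr was the only gene besides Ero1lb that was higher in alpha than in delta cells (log2 0.34, SE 0.070, adjusted p = 9.77e-06). Macrophages came close to beta cells in Calr, at 886 ± 180.4 against 1116 ± 96.7 (log2 -0.15, SE 0.086, adjusted p = 0.117), while the value on hormone-free library sizes was log2 0.33 (adjusted p = 1.44e-04).

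Among the cofactors of BiP, Sdf2l1 and Hyou1 had the largest differences from the other endocrine cells. Sdf2l1, a partner of the ER J-proteins, was at 559.7 ± 60.0 in beta cells, 368 ± 68.0 in macrophages, 198 ± 27.7 in delta and 113 ± 15.7 in alpha cells (log2 2.17, SE 0.074, adjusted p = 2.08e-93 for beta against alpha). It was lower in alpha than in delta cells (log2 -0.64), and its difference between beta cells and macrophages passed the threshold on hormone-free sizes only (adjusted p = 0.304 by TMM). Hyou1, a large HSP70-like chaperone that exchanges the nucleotide of BiP, was at 321 ± 35.5 in beta cells against 109 ± 23.2 in delta cells (log2 1.60, SE 0.091, adjusted p = 3.86e-44) and 19.4 ± 13.2 in endothelial cells (log2 3.99, SE 0.19, adjusted p = 7.22e-56). Dnajb9, a J-protein that restrains IRE1, reached 479.8 ± 61.1 in beta cells and 51.1 ± 18.2 in macrophages (log2 2.66, SE 0.21, adjusted p = 8.92e-20). Dnajc3, at 633 ± 53.1 in beta cells, was at 124 ± 33.7 in macrophages (log2 1.87, SE 0.14, adjusted p = 2.14e-30). The others of this group (Dnajb11, Creld2 and the secreted factor Manf) and Dnajc3 were also higher in beta than in alpha and in delta cells, by a log2 of 0.48 to 1.38.

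The clearest beta cell gene was Ero1lb, the oxidase ERO1-beta that recharges protein disulfide isomerase. Its gene lies at chr13:12565874-12611396 on the plus strand of GRCm38. In beta cells its level was 1680.4, 1379 and 1665 in chow mice 1, 2 and 3 and 1498 and 1707 in HC mice 1 and 2. Alpha cells held 105 ± 7.25, macrophages 37.3 ± 30.3, delta cells 27.2 ± 3.95 and endothelial cells 25.2 ± 9.54. The lowest beta value was far above the highest value of any other type. The difference was log2 3.77, SE 0.075, adjusted p = 7.00e-160 against alpha cells, and log2 5.90 against delta, 5.11 against macrophage and 5.96 against endothelial cells. Ero1l, the second ERO1 oxidase, which is also induced by low oxygen, was not called between beta and endothelial cells, at 48.7 ± 4.25 in beta and 39.1 ± 10.6 in endothelial cells (log2 0.30, SE 0.22, adjusted p = 0.223).

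Insulin UMIs in other cell types put a figure on the beta cell RNA they carried. They equalled 0.463% to 1.26% of the beta cell insulin share in alpha cells, 0.696% to 1.9% in delta cells, 0.964% to 3.12% in macrophages and 0.542% to 2.97% in endothelial cells. Beta cell RNA at these shares would supply, as the median over mice, 23.8% of the Ero1lb level of delta cells, 22.3% of that of macrophages and 23.0% of that of endothelial cells, and 4.76% of that of alpha cells. Over the 32 genes the median was 0.767% in alpha and 0.672% in delta cells, and Ero1lb was the only gene above 10% in delta, macrophage or endothelial cells. Ero1lb was higher in alpha than in delta cells (log2 2.13, SE 0.14, adjusted p = 1.07e-39), but when cells with 5% or more UMIs of another type's hormone were kept, the value was log2 0.50 (adjusted p = 0.170).

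The disulfide isomerases, which form and shuffle disulfide bonds, divided by cell type. Pdia6 (at 1016 ± 82.5 in beta and 451 ± 28.0 in alpha cells) and P4hb (at 418 ± 27.6 and 180.3 ± 35.2) were higher in beta cells than in the other 4 types. Pdia3, the partner of the lectin chaperones, and Pdia4 were not separated between delta and beta cells, with 957 ± 78.8 against 917 ± 86.2 for Pdia3 (log2 -0.026, SE 0.065, adjusted p = 0.773) and 199.7 ± 33.9 against 196 ± 29.2 for Pdia4 (log2 0.0032, SE 0.082, adjusted p = 0.9993). Both were lower in alpha than in delta cells (log2 -0.51 and -0.53).

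ER-associated degradation showed its widest differences in the EDEM and Derlin genes. Edem1, a mannosidase-like protein that hands misfolded glycoproteins over to degradation, was at 65.8 ± 3.16 in beta, 61.2 ± 21.0 in macrophage, 23.6 ± 7.74 in delta and 8.66 ± 3.64 in alpha cells (log2 2.77, SE 0.14, adjusted p = 7.18e-56 for beta against alpha; log2 -1.28, SE 0.23, adjusted p = 5.58e-07 for alpha against delta). Edem2, which begins the mannose trimming, was at 262 ± 9.10 in beta and 237 ± 20.0 in delta cells but at 88.5 ± 8.41 in alpha cells (log2 -1.23, SE 0.089, adjusted p = 2.98e-33 for alpha against delta). Derl1 and Derl2, parts of the exit channel, were higher in beta than in alpha cells by a log2 of 1.36 and 1.78. Selenos, which links the exit channel to the extracting ATPase, was higher in beta than in alpha cells (log2 1.15, SE 0.067, adjusted p = 8.69e-47) and delta cells (log2 0.90). Syvn1, the ubiquitin ligase, was at 45.7 ± 8.63 in beta and 28.0 ± 4.43 in alpha cells (log2 0.55, SE 0.11, adjusted p = 5.13e-06). Derl1 was also lower in alpha than in delta cells (log2 -0.67, SE 0.11, adjusted p = 4.16e-08), and Derl2 was higher in beta than in delta cells (log2 1.51, SE 0.096, adjusted p = 4.38e-41). Herpud1, a scaffold of the degradation complex, was highest in delta cells (329.8 ± 25.9) and missed the threshold between beta and alpha cells (log2 0.098, SE 0.13, adjusted p = 0.540). Sel1l, the adaptor of the ubiquitin ligase Syvn1, was at 72.4 ± 9.18 in endothelial and 76.9 ± 11.7 in beta cells (log2 0.081, SE 0.17, adjusted p = 0.690), with endothelial cells higher in 4 of 5 mice.

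Derl3, the Derlin known from secretory cells, was too sparse outside beta cells to be tested between types. It gave 111 to 170 UMIs per mouse in beta cells, 2 to 7 in alpha, 1 or 2 in delta and 0 to 2 in macrophage cells. Pooled over mice it reached 23.5 hormone-free UPM in beta cells against 1.98 in alpha cells. Endothelial cells gave 0 of 1273074 hormone-free UMIs, which allows up to 2.36 UPM, so beta cells were at least 9.97-fold higher, counting error only, with the floor of 3 counts taken over the group. The 50 acinar cells of 4 mice gave 11 UMIs, or 21.6 UPM (exact 95% Poisson interval 10.8 to 38.6, counting error only).

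The sensors differed among themselves. Ern1, which codes for IRE1, was lower in beta cells (31.7 ± 2.67) than in delta cells (57.0 ± 6.83; log2 -0.81, SE 0.13, adjusted p = 2.41e-08) and alpha cells (41.0 ± 8.52; log2 -0.52, SE 0.11, adjusted p = 7.04e-06), in 5 of 5 mice each time. It was the only gene of the 32 called lower in beta cells in either comparison, and it gave 0 to 2 UMIs in each macrophage and endothelial sum (beta against endothelial log2 3.24, which at so few UMIs is no bound). Eif2ak3, which codes for PERK, stood at 28.8 ± 4.56 in beta, 27.9 ± 6.01 in alpha and 30.5 ± 5.28 in delta cells, with no difference past the threshold (adjusted p = 0.468 and 0.836 for beta against alpha and delta). Atf6 was higher in beta cells (68.6 ± 7.51) than in alpha (31.3 ± 4.58) and delta cells (45.9 ± 11.5). Xbp1, the target of IRE1, was at 322 ± 24.1 in beta, 281 ± 36.8 in delta and 172 ± 24.2 in alpha cells (log2 0.77, SE 0.070, adjusted p = 2.97e-23 against alpha). Its difference from delta cells was small (log2 0.24, SE 0.075, adjusted p = 0.00387) and missed the threshold without HC mouse 1 (adjusted p = 0.131), in DESeq2 (0.127) and with the stricter cell filter (0.0754).

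The translocon genes among the 32, Sec61b (a subunit of the channel) and Ssr1 (a subunit of the translocon-associated TRAP complex), were higher in beta than in alpha and delta cells. Of the wider list of translocon, signal peptidase and glycosylation genes, 23 of 26 were higher in beta than in alpha cells and 0 were lower (median 0.62), beside 29.3% of all genes higher and 28.9% lower. Sec11c and Spcs3, subunits of the signal peptidase, had the smallest p (log2 1.64, SE 0.069, adjusted p = 7.66e-73; log2 1.51, SE 0.075, adjusted p = 9.17e-58). Other folding enzymes divided, with 16 of 29 higher and 6 lower, the latter below the share over all genes. Fkbp11, a prolyl isomerase, was higher in beta than in alpha cells (log2 2.34, SE 0.084, adjusted p = 4.86e-81), and Prdx4, the ER peroxiredoxin, lower (log2 -1.73, SE 0.077, adjusted p = 5.36e-57). Of the other degradation genes 15 of 21 were higher and 1 lower, led by Selenok (log2 1.03) and Ube2j1 (log2 0.88). The PERK, ATF4 and CHOP arm had 7 of 14 higher and 4 lower, the latter near the share over all genes, with Atf5 (log2 3.17, SE 0.093, adjusted p = 1.87e-109) and Nupr1 (log2 4.84, SE 0.22, adjusted p = 3.09e-51), stress-induced regulators, far higher in beta cells.

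No gene of the 32 passed the threshold between HC and chow in beta cells, and most values lay slightly above 0. By edgeR's quasi-likelihood test, 0 of 32 were called at an adjusted p under 0.05 (all genes 0.00846% higher, 0% lower) and 4 of 32 had an unadjusted p under 0.05 (588 of 11815 over all genes). The log2 of HC over chow was above 0 for 27 of the 32, with a median of 0.12 against -0.0052 over all 11815 genes. The HC values exceeded all 3 chow values for 9 of 32 genes, 28.1% (all genes 8.69%) and lay below them for 0 (all genes 12.1%). The 9 genes were Sel1l, Creld2, Sdf2l1, Hyou1, P4hb, Ssr1, Derl2, Edem1 and Manf, of which Manf differed least (log2 0.073). HC mouse 2 was the highest mouse for 20 of the 32 genes and chow mouse 1 the lowest for 14. Within the FUN pair the median was 0.090 and within the SKY mice 0.13, with 18 genes above 0 in both and 1 below in both. Without HC mouse 2 the median was 0.034, and with HC mouse 2 counted as chow, as its title says, it was -0.029.

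The smallest p belonged to Sel1l, at 66.5, 66.0 and 77.6 in chow mice 1, 2 and 3 and 79.8 and 94.6 in HC mice 1 and 2. Both HC mice were above the chow mice, by little for HC mouse 1 (log2 0.33, SE 0.12, adjusted p = 0.915). Creld2, an ER-resident stress protein, was at 168, 174 and 170.4 in chow mice 1, 2 and 3 and 197 and 197 in HC mice 1 and 2. The HC values almost coincided above the chow range (log2 0.22, SE 0.088, adjusted p = 0.941). Sdf2l1 was at 477, 532 and 568 in chow mice 1, 2 and 3 and 582 and 639 in HC mice 1 and 2. The groups did not overlap, but HC mouse 1 was close to chow mouse 3 (log2 0.23, SE 0.10, adjusted p = 0.941).

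Hyou1 was at 272, 303 and 329 in chow mice 1, 2 and 3 and 333 and 367 in HC mice 1 and 2. HC mouse 1 barely exceeded chow mouse 3 (log2 0.23, SE 0.10, adjusted p = 0.941). Dnajb9 was at 436, 447 and 466 in chow mice 1, 2 and 3 and 462 and 587 in HC mice 1 and 2. Only HC mouse 2 stood apart, and the groups overlapped (log2 0.24, SE 0.11, adjusted p = 0.941). P4hb, the main protein disulfide isomerase, was at 382, 409.7 and 407 in chow mice 1, 2 and 3 and 444 and 448 in HC mice 1 and 2. It was higher in both HC mice by a small step (log2 0.17, SE 0.089, adjusted p = 0.941).

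Hspa5, the usual readout of the response, did not separate the diets in beta cells. Its level was 1453, 1641 and 1526 in chow mice 1, 2 and 3 and 1334 and 1766 in HC mice 1 and 2. The HC mice were the highest and the lowest of the 5 (log2 0.024, SE 0.12, adjusted p = 0.9996). Xbp1 was at 340.2, 307 and 335 in chow mice 1, 2 and 3 and 342 and 287 in HC mice 1 and 2. HC mouse 1 was the highest mouse and HC mouse 2 the lowest (log2 -0.045, SE 0.099, adjusted p = 0.993). Atf6 was at 63.2, 58.0 and 74.5 in chow mice 1, 2 and 3 and 74.3 and 72.7 in HC mice 1 and 2. Both HC values lay in the upper part of the chow range (log2 0.19, SE 0.12, adjusted p = 0.941). Ern1 was at 31.3, 31.1 and 34.3 in chow mice 1, 2 and 3 and 33.9 and 27.7 in HC mice 1 and 2. HC mouse 2 was the lowest and the groups overlapped (log2 -0.050, SE 0.13, adjusted p = 0.994). Eif2ak3 was at 23.3, 31.8 and 27.4 in chow mice 1, 2 and 3 and 26.6 and 34.9 in HC mice 1 and 2. The chow values spread more widely than the difference between the diets (log2 0.17, SE 0.17, adjusted p = 0.966). The other genes lay between -0.040 for Hsp90b1 and 0.29 for Derl3, whose level of 23.7, 18.3 and 23.8 in chow mice 1, 2 and 3 and 31.3 and 21.6 in HC mice 1 and 2 overlapped between the diets. Standard errors of the 32 genes ran from 0.088 to 0.18 on the log2 scale, so changes of the size seen here were not detectable with 2 and 3 mice.

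**Figure D3:**
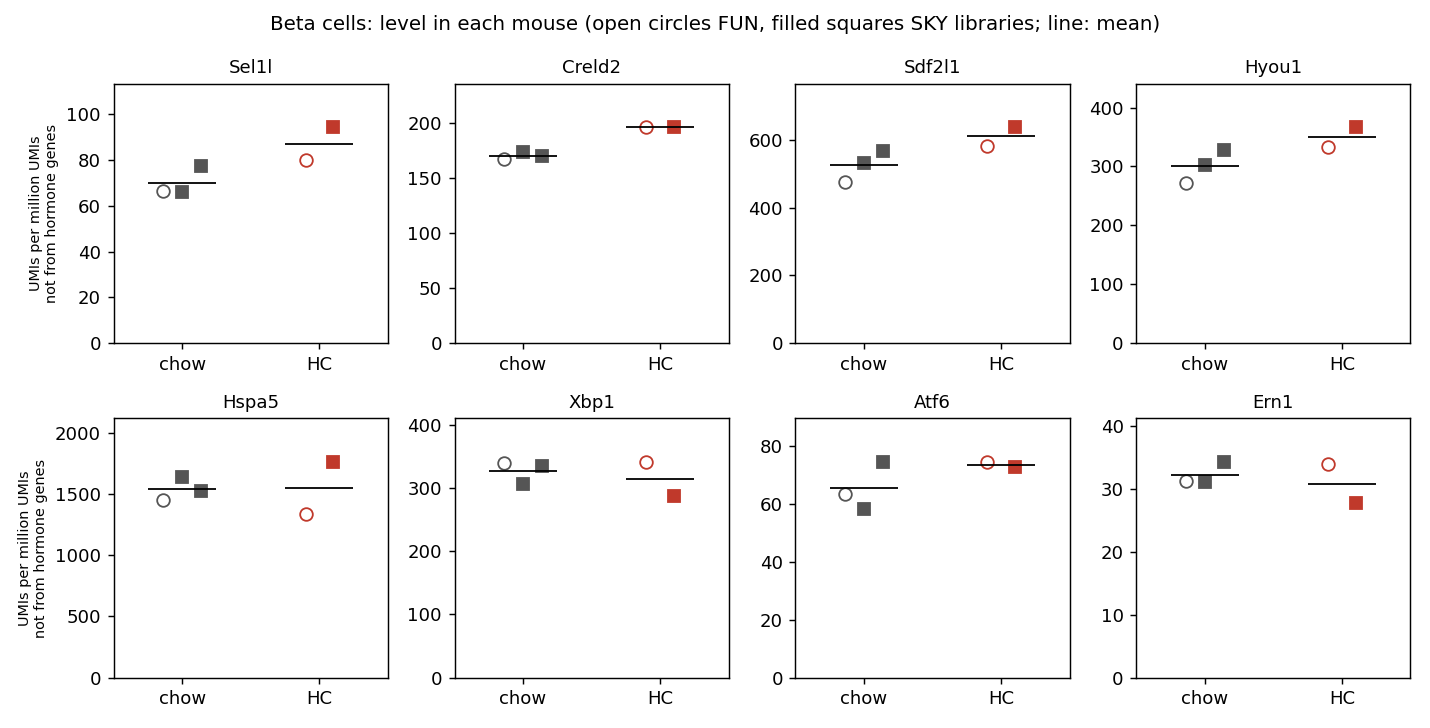
Beta cell level of 8 genes in each mouse, in hormone-free UPM; open circles are FUN libraries, filled squares SKY libraries, and lines are group means. Sel1l, Creld2, Sdf2l1 and Hyou1 are slightly higher in both HC mice, while Hspa5, Xbp1, Atf6 and Ern1 overlap.

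In alpha cells 31 of the 32 genes were tested (all but Derl3) and 0 were called by edgeR (all genes 0% higher and 0.038% lower), with 4 at an unadjusted p under 0.05 against 740 of 10530 over all genes. Values leaned below 0, with 11 above 0 and a median of -0.096 against -0.0019 over all genes. Both HC mice lay above the chow mice for 3 genes (all genes 15.2%) and below for 1 (all genes 7.48%). The libraries disagreed in direction. The median was -0.16 within FUN, where 7 genes were above 0, and 0.15 within SKY, where 24 were. It was 0.024 without HC mouse 1, -0.0036 without chow mouse 1 and -0.22 with HC mouse 2 counted as chow.

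Canx had the smallest p in alpha cells, at 229, 248 and 247 in chow mice 1, 2 and 3 and 337 and 313 in HC mice 1 and 2. Both HC mice were above the chow mice by more than the chow spread (log2 0.38, SE 0.12, adjusted p = 0.593). P4hb was at 144, 172 and 161 in chow mice 1, 2 and 3 and 188 and 236 in HC mice 1 and 2. The groups did not overlap (log2 0.36, SE 0.13, adjusted p = 0.634). Dnajc3, which codes for the PERK inhibitor P58IPK, was at 309.6, 297 and 270.5 in chow mice 1, 2 and 3 and 230.1 and 269.8 in HC mice 1 and 2. Both HC mice were lower, HC mouse 2 only just (log2 -0.28, SE 0.12, adjusted p = 0.693).

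Herpud1 was at 159, 210.1 and 237 in chow mice 1, 2 and 3 and 267 and 255 in HC mice 1 and 2. It was higher in both HC mice, with a low value in chow mouse 1 (log2 0.32, SE 0.15, adjusted p = 0.706). Manf was at 741, 634 and 626 in chow mice 1, 2 and 3 and 546 and 634 in HC mice 1 and 2. The groups overlapped (log2 -0.23, SE 0.12, adjusted p = 0.747). Hspa5 was at 1214, 1104 and 910.2 in chow mice 1, 2 and 3 and 802 and 1068 in HC mice 1 and 2. HC mouse 1 was the lowest mouse and HC mouse 2 lay inside the chow range (log2 -0.25, SE 0.15, adjusted p = 0.767).

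Whether the diet acted differently on alpha and beta cells was tested as an interaction with the mouse as a block. No gene of the 32 was called (all genes 0.309% called, either direction), but 12 of 32 had an unadjusted p under 0.05 against 786 of 12624 over all genes. The difference of alpha minus beta was below 0 for 26 of 32 genes, with a median of -0.20 against -0.0058. By smallest p these were Sdf2l1 (log2 -0.40, SE 0.12, adjusted p = 0.200) and Manf (log2 -0.31, SE 0.10, adjusted p = 0.359), while the value of Canx, chosen after its values were seen, was above 0 (log2 0.25, SE 0.11, adjusted p = 0.676). The library sets differed. Within FUN the diet medians were -0.16 in alpha and 0.090 in beta cells, but within SKY they were close, at 0.15 and 0.13. Leaving out 1 mouse at a time, the median difference ranged from -0.22 to -0.12.

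**Figure D4:**
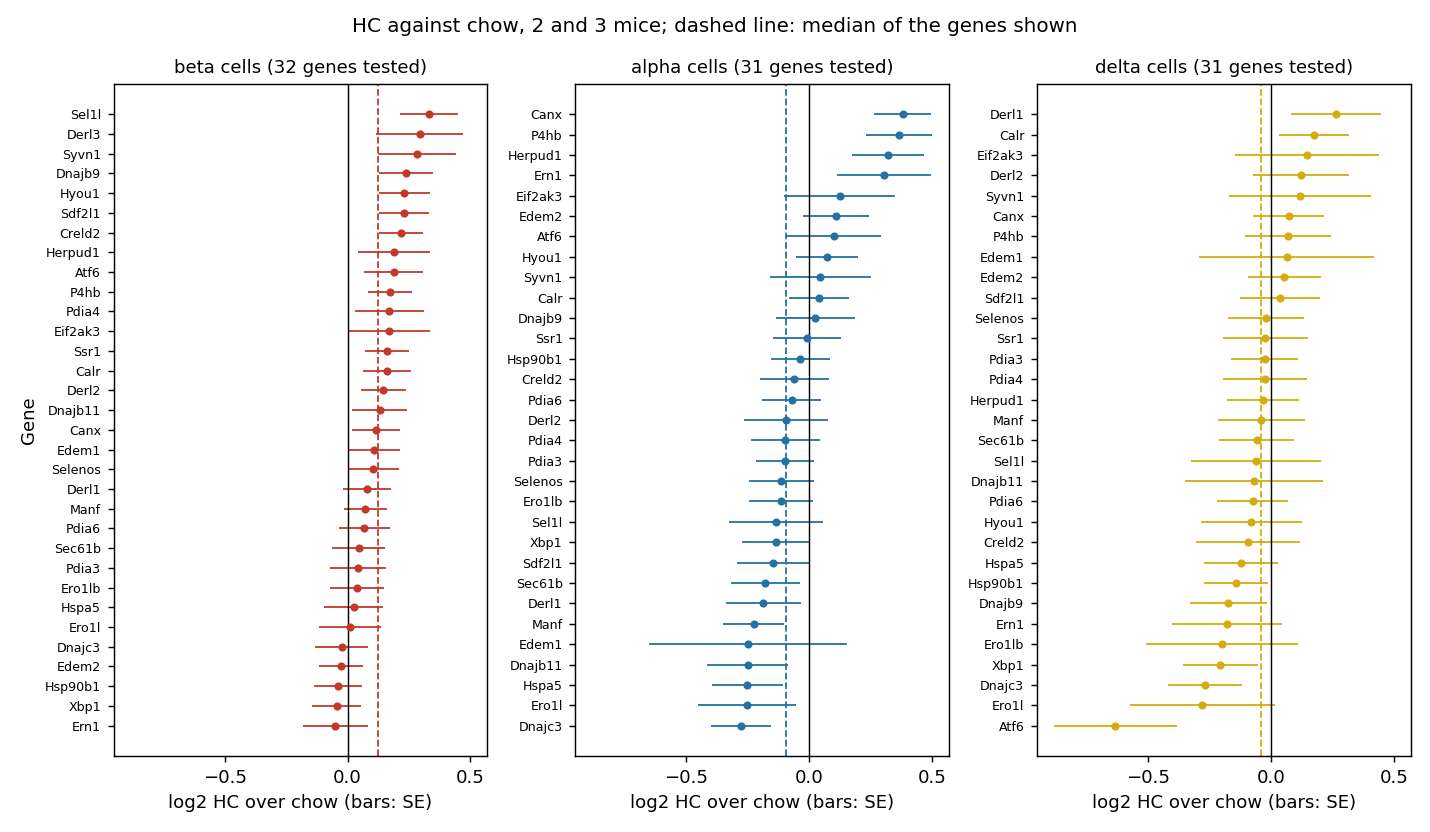
Log2 of HC over chow (edgeR, bars are standard errors) for the genes tested in beta, alpha and delta cells, each panel ordered by its own values; the dashed line is the median. Most beta cell values lie right of 0, most alpha and delta values lie left of it, and none passed the threshold.

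Delta cells gave 31 tested genes with 0 called by edgeR (all genes 0% higher and 0.0229% lower) and 1 at an unadjusted p under 0.05 (305 of 8726 over all genes). The median was -0.040 (all genes 0.0015), -0.37 within FUN and 0.12 within SKY. It was -0.26 without HC mouse 2 and 0.056 when HC mouse 1 was left out. Counting HC mouse 2 as chow gave -0.30. Both HC mice lay above the chow mice for 0 genes (all genes 8.09%) and below them for 2, Atf6 and Hsp90b1 (all genes 9.12%). Hsp90b1 was at 1676, 1614 and 1487 in chow mice 1, 2 and 3 and 1376 and 1481 in HC mice 1 and 2 (log2 -0.14, SE 0.13, adjusted p = 0.9996). Chow mouse 1 was the highest mouse for 17 of the 31 genes and HC mouse 1 the lowest for 13.

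In delta cells Atf6 was at 57.6, 46.1 and 56.8 in chow mice 1, 2 and 3 and 37.1 and 32.1 in HC mice 1 and 2. Both HC mice were lower (log2 -0.63, SE 0.25, adjusted p = 0.9996), with values of the same sign in both library sets (log2 -0.63 within FUN and -0.68 within SKY). Dnajc3 was at 582, 458 and 469.6 in chow mice 1, 2 and 3 and 363 and 461 in HC mice 1 and 2. HC mouse 1 was low and HC mouse 2 was inside the chow range (log2 -0.27, SE 0.15, adjusted p = 0.9996). Derl1 was at 118, 86.1 and 85.9 in chow mice 1, 2 and 3 and 113 and 118 in HC mice 1 and 2. HC mouse 2 was level with chow mouse 1 (log2 0.26, SE 0.18, adjusted p = 0.9996).

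Xbp1 was at 307, 318 and 270.1 in chow mice 1, 2 and 3 and 224 and 285 in HC mice 1 and 2, and HC mouse 1 was the lowest (log2 -0.21, SE 0.15, adjusted p = 0.9996). Calr was at 663, 512 and 514 in chow mice 1, 2 and 3 and 671 and 592 in HC mice 1 and 2, with overlap (log2 0.18, SE 0.14, adjusted p = 0.9996). Dnajb9 was at 332, 326 and 266 in chow mice 1, 2 and 3 and 232 and 306 in HC mice 1 and 2. HC mouse 1 was again the lowest (log2 -0.17, SE 0.16, adjusted p = 0.9996).

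Macrophages and endothelial cells were thin in counts. In macrophages 20 of 32 genes were tested, with 0 called by edgeR (all genes 0% higher, 0% lower), 0 at an unadjusted p under 0.05 (32 of 1698 over all genes) and a median of 0.10 (all genes -0.015). When HC mouse 2 was left out that median was 0.022, when HC mouse 1 was left out 0.25, and it fell below 0 at Leiden resolution 0.5, a coarser clustering (-0.031), and with HC mouse 2 counted as chow (-0.058). Both HC mice lay above the chow mice for 4 genes (all genes 7.89%) and below for 1 (all genes 8.72%). Dnajb11, a J-protein of BiP, had the smallest p, at 136, 112 and 123 in chow mice 1, 2 and 3 and 229 and 174 in HC mice 1 and 2 (log2 0.70, SE 0.33, adjusted p = 0.9998). These values rest on 11 to 31 UMIs a mouse.

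Calr in macrophages was at 927, 654 and 769 in chow mice 1, 2 and 3 and 1122 and 959 in HC mice 1 and 2, with both HC mice higher (log2 0.42, SE 0.26, adjusted p = 0.9998). Pdia4 was at 45.2, 81.7 and 71.1 in chow mice 1, 2 and 3 and 98.3 and 101 in HC mice 1 and 2 and Canx at 136, 112 and 155 in chow mice 1, 2 and 3 and 172 and 174 in HC mice 1 and 2. Both genes were higher in both HC mice (log2 0.58, SE 0.44, adjusted p = 0.9998 for Pdia4; log2 0.35, SE 0.33, adjusted p = 0.9998 for Canx), but at Leiden resolution 0.5 their log2 values were -0.022 and -0.024. Derl2 was at 90.5, 91.9 and 103 in chow mice 1, 2 and 3 and 65.5 and 61.7 in HC mice 1 and 2, lower in both HC mice (log2 -0.58, SE 0.44, adjusted p = 0.9998). Sdf2l1 was at 396, 286 and 317 in chow mice 1, 2 and 3 and 459 and 381 in HC mice 1 and 2, with overlap (log2 0.35, SE 0.29, adjusted p = 0.9998). The 12 genes left untested, among them Ern1, Eif2ak3 and Atf6, gave few UMIs per mouse.

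In endothelial cells 25 of 32 genes were tested, with 0 called by edgeR (all genes 0.0195% higher, 0.0195% lower), 0 at an unadjusted p under 0.05 (166 of 5126 over all genes) and a median of -0.082 (all genes 0.0033). Both HC mice lay beyond the chow mice for 0 genes in either direction (all genes 7.59% above and 9.03% below). Atf6, of smallest p, was at 36.1, 25.5 and 29.5 in chow mice 1, 2 and 3 and 67.8 and 35.7 in HC mice 1 and 2, where HC mouse 1 alone was high (log2 0.72, SE 0.44, adjusted p = 0.9996). Manf was at 354, 238 and 315 in chow mice 1, 2 and 3 and 230.4 and 242 in HC mice 1 and 2, with HC mouse 1 the lowest (log2 -0.34, SE 0.21, adjusted p = 0.9996). Creld2 was at 72.2, 34.0 and 59.1 in chow mice 1, 2 and 3 and 37.3 and 35.7 in HC mice 1 and 2, with overlap (log2 -0.57, SE 0.40, adjusted p = 0.9996). The next by p, Derl1, Canx and Selenos, had log2 values of -0.33, -0.24 and 0.33 with overlapping groups.

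No gene of the other ER lists was called with diet in beta cells by edgeR. Of 26 translocon, signal peptidase and glycosylation genes 20 were above 0 (median 0.084), of 29 other folding enzymes 18 (median 0.035) and of 22 other degradation genes 12 (median 0.0034), with 2, 1 and 1 genes at an unadjusted p under 0.05. Fkbp11 (log2 0.34, SE 0.11, adjusted p = 0.904) and Ppib (log2 0.21, SE 0.11, adjusted p = 0.941), both prolyl isomerases, had the smallest p of the folding enzymes. Sec61a1 (log2 0.25, SE 0.089, adjusted p = 0.915), the channel itself, and Stt3a (log2 0.24, SE 0.10, adjusted p = 0.941), a catalytic subunit of the oligosaccharyltransferase, led the translocon list. Nploc4 (log2 0.38, SE 0.13, adjusted p = 0.912) and Man1b1 (log2 0.28, SE 0.15, adjusted p = 0.941) led the degradation list. The PERK, ATF4 and CHOP arm had 12 of 15 above 0 (median 0.19), 5 at an unadjusted p under 0.05 (588 of 11815 over all genes) and 0 called. Nupr1 (log2 1.07, SE 0.17, adjusted p = 0.0973) and Atf5 (log2 0.51, SE 0.12, adjusted p = 0.382) had its smallest p. Ddit3, which codes for CHOP and was chosen after its values were seen, was at 114, 88.5 and 98.9 in chow mice 1, 2 and 3 and 131 and 129 in HC mice 1 and 2 in beta cells (log2 0.38, SE 0.11, adjusted p = 0.789). In alpha cells that arm had 10 of 14 above 0 (median 0.17). By edgeR, Atf5 (log2 0.75, SE 0.21, adjusted p = 0.517) and Atf4 (log2 0.39, SE 0.13, adjusted p = 0.630) were above 0 there. Atf3, next by p, was below 0 (log2 -0.85, SE 0.33, adjusted p = 0.666). The arm did not lean upward in the other types. It had 5 of 12 above 0 in delta cells (median -0.024), 1 of 6 in macrophages (median -0.46) and 3 of 7 in endothelial cells (median -0.0047). Over all genes 47.5% to 50.6% were above 0 in the 5 types.

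Genes that respond to cell dissociation, such as Fos, Jun and heat-shock genes, leaned below 0 with the HC diet in the same sums. In beta cells 17 of 20 were below 0 (median -0.49), and their summed level was 6381 to 6419 in HC mice against 6852 to 8626 in chow mice, without overlap. In alpha cells 17 of 20 were below 0 (median -0.23; 9023 to 9169 against 7941 to 10926), and in delta cells 16 of 18 (median -0.27; 7359 to 7420.2 against 7577 to 9161), where Hspa1a (log2 -0.95, SE 0.16, adjusted p = 0.0118) and Hspa1b (log2 -1.14, SE 0.19, adjusted p = 0.0118) were the 2 genes called. With DESeq2, the stricter cell filter, all cells of the type, or without chow mouse 2, 0 genes were called in delta cells, and 1 was with age as a term or with HC mouse 2 counted as chow. Hspa1a and Hspa1b are near-identical copies that can share reads, so their split is uncertain. The genes of smallest p in beta cells were Junb (log2 -0.63, SE 0.12, adjusted p = 0.140) and Hspa1b (log2 -0.70, SE 0.14, adjusted p = 0.154). By edgeR 12 of 20 had an unadjusted p under 0.05 in beta cells (588 of 11815 over all genes). In alpha cells 7 of 20 did (740 of 10530), and in delta cells 7 of 18 (305 of 8726). Macrophages had 15 of 17 below 0 and endothelial cells 18 of 20. The part of this response in the values of the 32 genes was not tested.

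Within beta cells most folding genes were higher in the cells with more insulin. Beta cells of each mouse were split into tertiles by the share of their UMIs that came from Ins1 and Ins2. Summed over the cells of a mouse, that share was 54.2% to 63.0% in the lowest and 66.1% to 74.2% in the highest tertile. Single cells of the lowest tertile ran from 0.745% in chow mouse 3 to 66.5% in chow mouse 2. Those of the highest tertile ran from 63.3% in HC mouse 1 to 81.4% in HC mouse 2. With both insulin genes left out of the counts and library sizes, 26 of 32 genes were higher in the highest tertile and 0 lower, with a median log2 of 0.51 (all genes 17.4% higher, 15.5% lower, median -0.014 over 10030 genes; edgeR with the mouse as a block). The 26 genes were higher in 5 of 5 mice each. Levels in these comparisons are UMIs per 1000000 not from Ins1 or Ins2, listed for chow mice 1, 2 and 3 and HC mice 1 and 2. The tertiles are ranges of a score: 24.0% to 28.7% of a mouse's beta cells lay within 1 percentage point of a boundary.

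Derl3 differed most, with 6.75, 8.24, 5.92, 7.60 and 9.88 in the lowest tertile and 36.3, 25.7, 36.9, 51.4 and 35.0 in the highest (log2 2.22, SE 0.16, adjusted p = 3.54e-42). Every mouse showed a large step, from few UMIs. For 27 of the 32 genes the mean of the middle tertile lay between those of the other 2. Sdf2l1 went from 266, 318, 279.8, 316 and 400.2 to 606, 713, 732, 726 and 784 (log2 1.16, SE 0.042, adjusted p = 2.35e-163). Creld2 went from 103, 105, 95.2, 126 and 126 to 201, 223, 215, 223 and 248 (log2 0.99, SE 0.056, adjusted p = 6.08e-67), and Edem2 from 157, 156, 165, 158 and 177 to 308, 346, 336, 309.6 and 324 (log2 0.99, SE 0.049, adjusted p = 7.04e-88). All 5 mice moved upward in these genes, and the ranges of the tertiles did not overlap.

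Hspa5 was at 1115, 1194, 1014, 974 and 1359 in the lowest and 1566, 1822, 1706, 1514 and 1892 in the highest tertile (log2 0.58, SE 0.037, adjusted p = 8.50e-53). Hsp90b1 was at 1159, 1319, 1208, 1215 and 1243 and 1523, 1799.6, 1920.2, 1674 and 1639.6 (log2 0.46, SE 0.037, adjusted p = 4.95e-34). Ero1lb was at 1110.2, 940.1, 1066, 1085 and 1186 and 1897, 1619, 1865, 1664 and 1926 (log2 0.72, SE 0.037, adjusted p = 3.07e-82). All 3 genes were higher in the highest tertile in each of the 5 mice. Xbp1 had the smallest log2 of the called genes, from 289.9, 248, 282, 297 and 251 to 337, 301, 344, 318 and 262 (log2 0.18, SE 0.045, adjusted p = 5.00e-04). The 6 genes that were not called were Canx (log2 -0.015, SE 0.041, adjusted p = 0.829), Atf6 (log2 0.017, SE 0.084, adjusted p = 0.906), Sel1l, Ero1l, Ern1 and Eif2ak3, so all 3 sensors were among them.

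**Figure D5:**
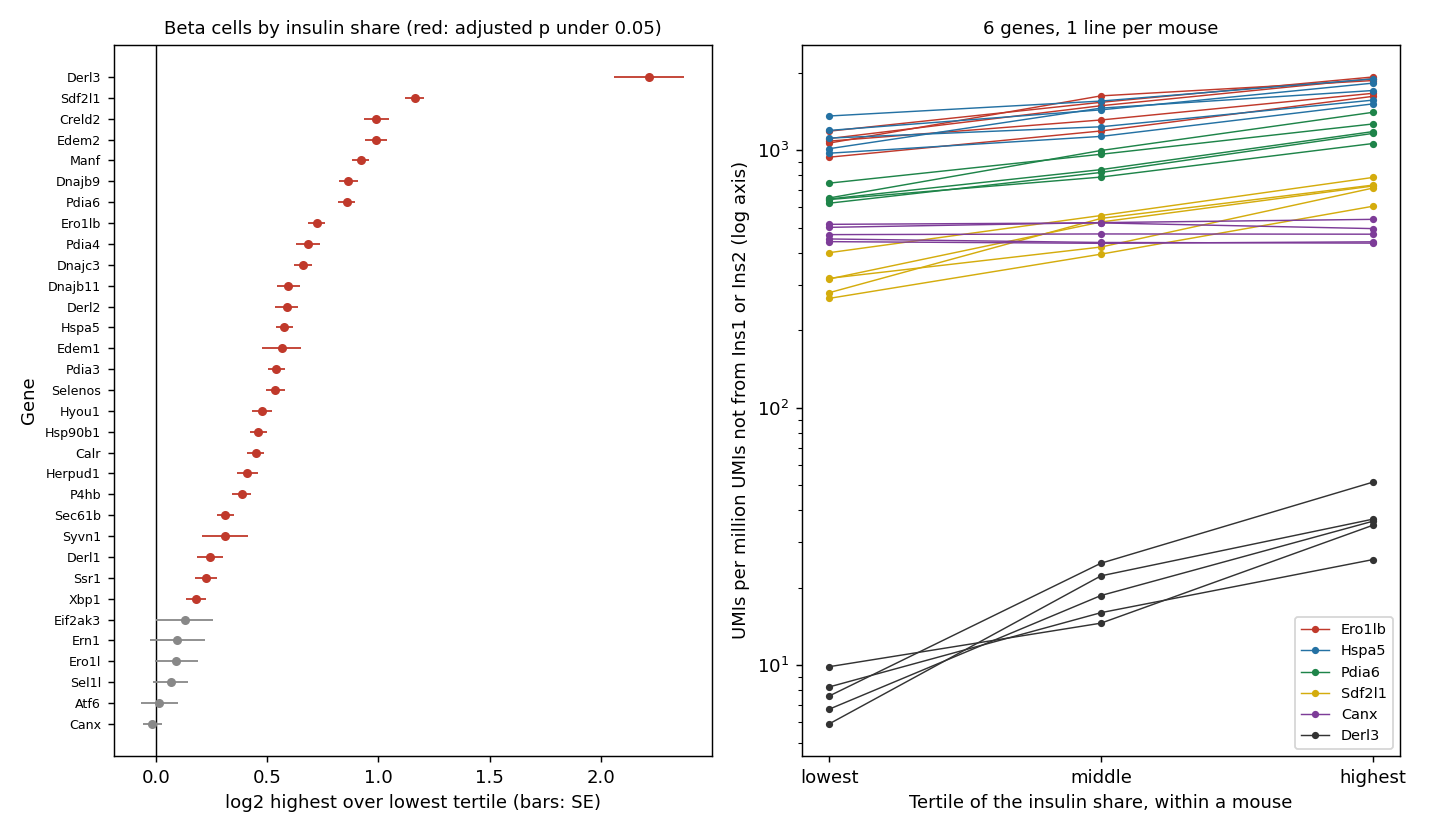
Left, log2 of the highest over the lowest tertile of insulin share in beta cells for the 32 genes, with standard errors; red marks an adjusted p under 0.05. Right, levels of 6 genes in the 3 tertiles on a log axis, 1 line per mouse: Derl3, Sdf2l1, Pdia6, Ero1lb and Hspa5 climb in every mouse and Canx does not.

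The other ER lists divided. Of the translocon, signal peptidase and glycosylation genes 23 of 26 were higher and 0 lower (median 0.43), beside 17.4% of all genes higher and 15.5% lower, led by the TRAP subunits Ssr4 (log2 0.78, SE 0.037, adjusted p = 3.30e-96) and Ssr2 (log2 0.77, SE 0.042, adjusted p = 2.11e-74). Of the other folding enzymes 20 of 28 were higher and 0 lower, led by Fkbp11 (log2 1.24, SE 0.048, adjusted p = 1.08e-136) and Ppib (log2 0.63, SE 0.044, adjusted p = 3.04e-44), and of the other degradation genes 7 of 22 were higher and 0 lower, led by Selenok (log2 0.47) and Erlec1 (log2 0.56). The PERK, ATF4 and CHOP arm went the other way, with 9 of 15 lower, 2 higher and a median of -0.37. Nupr1 (log2 -2.32, SE 0.11, adjusted p = 7.72e-101) and Atf5 (log2 -1.09, SE 0.047, adjusted p = 1.81e-107) had the smallest p and were lower. Cell quality moved with the split: the median mitochondrial share was 3.10% to 5.65% in the lowest tertile against 1.23% to 2.85% in the highest, and of the dissociation genes 13 of 20 were higher and 1 lower in the highest tertile. Their part in the result was not tested. Median UMIs not from insulin were 2305 to 3154 in the lowest and 2309.5 to 3387 in the highest tertile.

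Set beside the promoters, the 12 genes with an exact match to a stress element and the 16 without one had similar values in these comparisons. By insulin tertile, 11 of 12 with an element were higher (median log2 0.59) and 12 of 16 without (median 0.46). For beta against alpha cells the medians were 0.79 over 11 tested genes with an element and 0.88 over 16 without, and for HC against chow in beta cells 0.12 and 0.13. These medians are descriptions with no test. Canx, with ERSE, was not called across the tertiles, while Sdf2l1 and Edem2, with no match in the window, were among the genes with the largest steps.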

How the data were processed

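Single cells from hand-picked islets of 5 mice were counted. The deposited matrices hold raw UMI counts per gene and cell, made with Cell Ranger 4.0.0 on mm10, per the submitters' processing notes. Cells with at least 1000 UMIs and 500 genes and at most 15% mitochondrial UMIs were kept and clustered (scanpy 1.11.5, Leiden at resolution 1.0 in igraph 0.11.9) on variable genes without the 32 genes or the pathway lists. Of 21 clusters, 15 were named from markers by a rule set after the clusters were seen. No doublet caller was run, and cells with 5% or more UMIs from hormone genes of another type were left out. The libraries share 80 of 26394 barcodes. UMI counts were summed per mouse and type (at least 20 cells) and tested with edgeR 4.0.16 (R 4.3.3, TMM, filterByExpr, robust quasi-likelihood test, Benjamini-Hochberg adjustment over all genes tested, threshold 0.05), HC against chow without a block, and types and insulin tertiles with the mouse as a block. Tests were checked on simulated data. Library depth was 28722244 to 39624978 UMIs.

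The 32 genes and all lists were chosen with earlier results of these data known. Values per mouse are given for the 6 tested genes of smallest p in each type and, in beta cells, Hspa5, Xbp1, Atf6, Ern1 and Eif2ak3. In comparisons of types and tertiles the named genes are the 4 largest log2 past the threshold in each direction with Hspa5, Hsp90b1, Ero1lb and Xbp1, and for other lists the 2 genes of smallest p. Further genes described by role in the comparisons of types were chosen after their values were seen. Alternatives were DESeq2 1.42.0, RLE factors, hormone-free library sizes, no count filter, stricter cells (2000 UMIs, 1000 genes, 10% mitochondrial), all cells of a type, other clusterings, left-out mice, library prefix or age as a term, and HC mouse 2 as chow. Separate mice are the replicates. Counts are not stated to use strand, so overlapping antisense genes are uncertain.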

Additional observations from a re-analysis of the deposited data

How the results depend on the processing

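With 2 HC and 3 chow mice and median standard errors of 0.11 (beta), 0.14 (alpha), 0.17 (delta), 0.34 (macrophage) and 0.28 (endothelial cells) on the log2 scale, small diet effects on single genes were not detectable. No paired analysis was possible because the replicate numbers follow accession order. The library prefix, which sets chow mouse 1 beside HC mouse 1, was fitted as a term instead. In both library sets the HC mouse was the younger, at 7 against 8 weeks in FUN and 9 against 10 and 10 weeks in SKY. Within a library set diet therefore cannot be told apart from age. Across 20 settings, 584 of 658 summary values kept their value within the limits set and 74 moved. Of 1176 values of single genes, 1147 kept their call, 13 changed sign, 13 lost the threshold and 3 gained it. Both totals include diet values that were far from the threshold and diet counts of 0, which had little room to change. They are therefore no measure of how firm the diet values are. No setting called any of the 32 genes between the diets in any of the 5 types. The causes of the changes below were not tested.

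Genes called over all genes with diet in beta cells (1 in the report) were 14 in DESeq2, 58 with no filter on low counts, 15 with the library prefix as a term, 9 with age as a term and 3 with HC mouse 2 as chow. In alpha cells (4) they were 34 with no filter, 7 with the 32 genes among the variable genes, 9 with the prefix term and 20 with HC mouse 2 as chow. In delta cells (2) they were 0 in DESeq2, 4 with no filter, 0 with stricter cells, 0 with all cells, 1 with age as a term and 1 with HC mouse 2 as chow. In macrophages (0) they were 5 with no filter. In endothelial cells (2) they were 0 in DESeq2, 9 with no filter, 4 with the prefix term, 6 with age and 20 with HC mouse 2 as chow. The interaction called 17 genes with all cells, against 39, and the insulin comparison 1972 genes between the highest and lowest 10%, against 3303.

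The median log2 of the 32 genes with diet moved to 0.18 in beta cells with age as a term and, with HC mouse 2 as chow, to -0.029 in beta, -0.22 in alpha, -0.30 in delta and -0.058 in macrophage cells. It was 0.15 in alpha cells within SKY, -0.37 in delta cells within FUN, 0.35 in macrophages within SKY and -0.031 in macrophages at Leiden resolution 0.5. For alpha against delta the hormone-free median was -0.43 with 23 genes lower, and all cells left 1 gene higher. For beta against macrophages the median was 1.31 hormone-free and 1.09 with no filter, and 1 gene was lower at resolution 0.5. For beta against delta 2 genes were lower with no filter, with stricter cells and with all cells.

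Leaving out 1 mouse at a time, the diet median of the 32 genes ranged from 0.034 to 0.18 in beta, from -0.17 to 0.024 in alpha, from -0.26 to 0.056 in delta, and from 0.022 to 0.25 in macrophage cells. It was -0.21 to -0.071 in endothelial cells. Genes called with diet ranged from 0 to 6 in beta, 2 to 18 in alpha, 0 to 8 in delta, 0 to 15 in macrophage and 0 to 39 in endothelial cells, and in the interaction from 12 to 28. Genes of the 32 called lower ranged from 1 to 2 for beta against delta and from 0 to 2 for beta against macrophages.

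In beta cells the sign of uncalled diet values changed for Hspa5, Xbp1, Ern1 and Eif2ak3 when 1 mouse was left out. Their ranges were -0.20 to 0.23, -0.16 to 0.069, -0.19 to 0.081 and -0.051 to 0.37, with the change of sign without HC mouse 2 and, for Hspa5, also without chow mouse 1 (-0.014). With HC mouse 2 as chow, Hspa5 was at -0.27, Xbp1 at 0.098, Ern1 at 0.11, Eif2ak3 at -0.15 and Dnajb9 at -0.077. Dnajb9 in delta cells ranged from -0.42 to 0.019, the latter without HC mouse 1. Pdia4 (-0.022) and Canx (-0.024) in macrophages changed sign at resolution 0.5.

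Without the mouse as a replicate block, comparisons of types lost the calls of Hspa5 for alpha against delta (log2 -0.16, adjusted p = 0.312) and for beta against macrophages (log2 0.26, adjusted p = 0.0733), and no other call among the genes refitted this way, those named by rule in each comparison. The stricter cell filter could not be run for macrophages or endothelial cells, where a mouse had fewer than 20 cells.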
